A study of Mus musculus with 4 samples.

Results

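A set of 9 genes that encode RNA-binding proteins of germ cell translational control was followed in testis RNA of *Nef-sp* knockout mice. They are *Ybx2*, *Dazl*, *Boll*, *Dazap1*, *Cpeb1*, *Pum2*, *Celf1*, *Tarbp2* and *Elavl1*, and they were taken by name as genes of this function. All 9 had a row of sense reads over gene exons among the 12415 genes and other features listed with such reads. The table used the symbol for 8 of them, and *Celf1* was found under its older symbol *Cugbp1*. The study compared testes of mice homozygous for a knockout allele of *Nef-sp*, a gene for a nuclear RNA exonuclease listed as *2610020H08Rik*, with testes of heterozygous mice. The allele carries a 23-bp deletion made with Cas9 nickase and a pair of guide RNAs in C57Bl/6J embryos, and it was bred into a mouse line by mating the founders to C57Bl/6J Rj animals. The 2 *Nef-sp*-/- and 2 *Nef-sp*+/- libraries all came from the testes of adults at postnatal day 60 on the C57Bl/6J background, so the control group also carried 1 knockout allele and no wild-type animals entered the comparison. The labels do not say whether the 2 libraries of a genotype came from different animals, and the p-values measure the spread between these libraries, which may be technical.

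Male germ cells stop transcription when the spermatid nucleus is compacted, and many mRNAs are made earlier, stored as ribonucleoprotein particles and translated days later. RNA-binding proteins that recognize short elements in the 3' untranslated region (3'UTR) hold such mRNAs silent, stabilize them or recruit them to ribosomes. The protamine mRNAs of spermatids and the mRNAs of the synaptonemal complex in spermatocytes are the textbook examples.

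The elements that these proteins are known to bind are short, and examples of such sites follow. They are not shared by all 9 genes. Each line gives 30 bases, 5' to 3' on the strand of the mRNA, around the first match to an element in the longest annotated 3'UTR of the gene, read from the mm9 genome with the GENCODE annotation. Capitals mark the match. The first 4 are from mRNAs that the proteins are known to bind, picked from those with a match, and the last 3 are from members themselves.
*Prm1*, the Y-box recognition letters of YBX2, chr16:10796541-10796570, minus strand: agaatagcaagTCCATCAaaactcctgcgt
*Sycp1*, the cytoplasmic polyadenylation letters of CPEB1, chr3:102622552-102622581, minus strand: tttcatctgaatTTTTATtgtattcagata
*Ddx4*, the U-rich letters of DAZL, chr13:113388778-113388807, minus strand: tgtgatgtgctTTTGTTTaattattgggtc
*Sycp3*, the same U-rich letters, chr10:87935907-87935936, plus strand: tttcagggtttTTTGTTTgtttgttttaat
*Elavl1*, the AU-rich letters that ELAVL1 itself recognizes, chr8:4285787-4285816, minus strand: gtcatgaaaatTATTTATttatttatttat
*Pum2*, the Pumilio recognition letters TGTANATA, chr12:8756960-8756989, plus strand: gtttatagagaTGTATATAgaattatagtt
*Dazl*, the cytoplasmic polyadenylation letters, chr17:50420440-50420469, minus strand: tagattgcatagTTTTATgttaaacttgtt

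Matches of so few letters are common, and more so in long 3'UTRs. TCCATCA stood in 9.50% of the 19907 longest 3'UTRs of the annotation, but in 1.35% of those within 20% of the length of *Prm1*. For *Sycp1* the share of 3'UTRs of like length with TTTTAT was 21.0%, and for *Sycp3* and *Ddx4* the shares with TTTGTTT were 9.63% and 19.8%. The long 3'UTRs of the members gave less contrast. TTTTAT was found in 70.6% of 3'UTRs as long as that of *Dazl*, TGTANATA in 65.6% of those as long as that of *Pum2*, and TATTTAT in 60.05% of those as long as that of *Elavl1*. Among the 9 members, 8 held TTTTAT, 8 TTTGTTT, 6 TATTTAT, 4 the GU-rich letters TGTTTGT of CELF1, 2 TGTANATA and 0 TCCATCA. Over all 3'UTRs of any length these letters occurred in 47.1%, 32.7%, 23.9%, 22.9%, 20.5% and 9.50%, in the same order. These shares are not matched to the length of the members. For TTTGTTT the share among 3'UTRs of like length ran from 14.4% for *Ybx2* to 87.7% for *Celf1*. *Tarbp2* held none of the 6. Most of the 16 target mRNAs listed with exon reads lacked each element too: 4 held TTTTAT, 4 TTTGTTT, 1 TATTTAT, 1 TGTTTGT, 1 TGTANATA and 1 TCCATCA. The search read the mRNA strand only. TTTGTTT and TGTTTGT can overlap. A match describes these letters only, and binding was not measured.

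The libraries held 20659865 to 34442517 reads in all annotation categories, of which 15815159 to 26618821 were sense reads over gene exons. The second *Nef-sp*+/- library was the deepest, so its values carry the least counting error. Sense exon reads of *Nef-sp* checked the labels. Normalized counts, which are reads scaled to the mean effective library size, were 1843 and 1693 in *Nef-sp*+/- against 407 and 497 in *Nef-sp*-/- testes. The log2 fold change was −1.97 (SE 0.0921, adjusted p = 4.1e-06, edgeR quasi-likelihood test). *Nef-sp* was the single exon sense feature of 10728 tested that passed an adjusted p of 0.05, which is 0.00932%. Marker transcripts of spermatogonia, spermatocytes, spermatids, Sertoli cells, Leydig cells, peritubular cells and macrophages were all present, with 46 of 49 listed, while of 4 epididymis markers 1 was listed, with 0 to 5.77 normalized counts. Summed normalized counts were 1130 to 1294 for spermatogonia, 12458 to 13767 for spermatocytes and 26736 to 28823 for round spermatids. They were 17851 to 18687 for Sertoli cells (*Amh* and *Rhox5* not listed) and 1142 to 1312 for macrophages. The sum of 5 peritubular cell markers was 1426 and 1388 in *Nef-sp*+/- against 1236 and 1361 in *Nef-sp*-/- testes, lower without overlap. The sum of 7 Leydig cell markers was 19396 and 19577 in *Nef-sp*+/- against 18533 and 16105 in *Nef-sp*-/- testes, also lower without overlap. By edgeR, 2 of these 7 had an unadjusted p below 0.05 and 0 passed the adjusted threshold. Of the 4 peritubular cell markers tested, 0 had an unadjusted p below 0.05. An unadjusted p below 0.05 was also found for 1 of 6 round spermatid and 1 of 6 elongating spermatid markers. Of all features tested, 4.80% had such a p, and 18.1% were lower in *Nef-sp*-/- testes without overlap. The part of the Leydig and peritubular cell differences in the members' values was not tested. The first *Nef-sp*+/- library was low in late spermatid transcripts. The summed normalized counts of 6 elongating spermatid markers were 337354 there and 412234 to 424558 in the other 3 libraries. These 6 markers are all on the list of target mRNAs described later, so the sum and those values are not separate measurements. In whole testis, fewer cells of a type and less RNA per cell cannot be told apart.

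Levels were set side by side after division by exon length, as RPKM (sense reads scaled to the merged exon length in kilobases and to the total of sense exon reads), over all 4 libraries. *Ybx2* was far above the other members with 1002 ± 47.5 (SD, n = 4), 11.2 times the next gene. *Dazl* followed with 89.8 ± 4.64, *Dazap1* with 40.4 ± 1.80 and *Tarbp2* with 34.3 ± 1.63. *Elavl1* had 20.3 ± 1.72 and *Boll* 18.8 ± 1.40. The ranges of these 2 overlapped, and they were the only neighbours in the order whose ranges did. *Pum2* had 7.08 ± 0.236, *Celf1* 3.56 ± 0.284 and *Cpeb1* 0.368 ± 0.0765. The 9 genes thus spanned 2721 times between the highest and the lowest. The gene for the mRNA storage protein was thus the most abundant and a DAZ family gene came next, while the gene for the cytoplasmic polyadenylation factor had 17 to 48 reads per library.

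**Figure D1:**
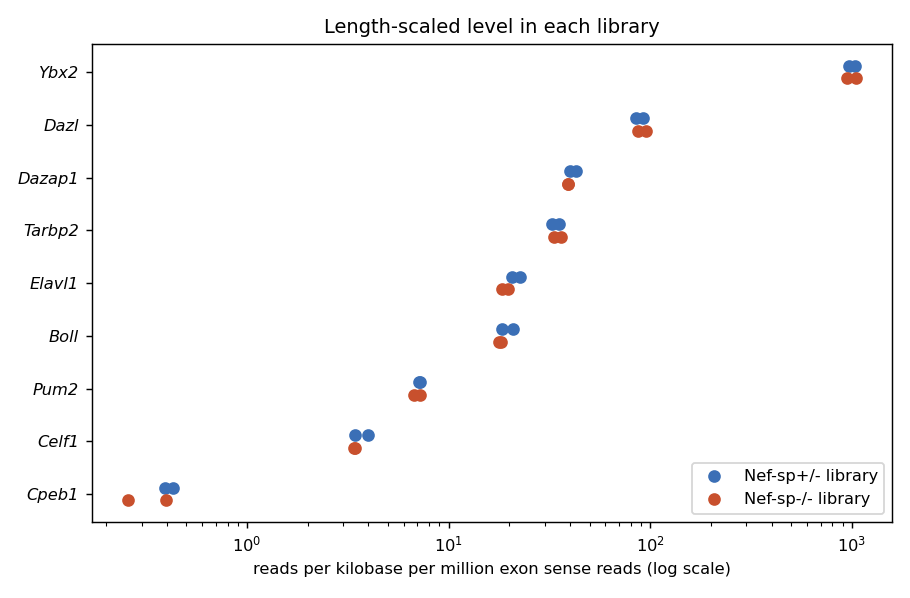
Length-scaled levels of the 9 RNA-binding genes, as RPKM over merged exons on a log axis, with one point per library and the genotypes in 2 colours. *Ybx2* lies between 950.1 and 1051, *Dazl* between 84.8 and 95.03 and *Cpeb1* between 0.256 and 0.430, and the points of *Elavl1* and *Boll* overlap.

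The order rests partly on the gene models. With the length of the longest transcript in place of merged exons, the span was 2275 times, *Dazap1* and *Tarbp2* stood level at 57.2 and 57.1, and *Boll* (25.1) lay above *Elavl1* (20.3). The 14 annotated transcripts of *Tarbp2* merge into 4 exon blocks, which lengthens its merged exon. None of the 9 members had a 50-base stretch of exon sequence shared with a protein-coding transcript of another gene, so their reads were not split with paralogs by sequence identity at the length of the reads.

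No member differed in exon reads between *Nef-sp*-/- and *Nef-sp*+/- testes beyond the spread between libraries after adjustment. Of 9 members, 0 passed an adjusted p of 0.05 by edgeR and 0 by DESeq2, which also gave 0 members an unadjusted p below 0.05. The shares of all features past the adjusted threshold were 0.00932% by edgeR and 0.0186% by DESeq2, and 1.38% had an unadjusted p below 0.05 by DESeq2. At an unadjusted p below 0.05, 1 member was lower and 0 were higher, against 4.80% of all features, 2.83% lower and 1.97% higher. The log2 fold changes ran from −0.33 to 0.07, with a median of −0.06 beside −0.00022 for all features, and the median size without sign was 0.07 for both. In 2 members, both *Nef-sp*-/- libraries lay below both *Nef-sp*+/- libraries, and in 0 both lay above. Such an order, lower, occurred in 18.1% of all features tested, and higher in 16.4%.

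*Ybx2* (chr11:69749298-69755107, plus strand) encodes the germ cell Y-box protein that packages stored mRNAs, the protamine mRNAs among them. Its normalized counts were 35444 and 34416 in *Nef-sp*+/- against 37380 and 33515 in *Nef-sp*-/- testes. The *Nef-sp*-/- libraries were the highest and the lowest of the 4, so the genotypes overlapped. The log2 fold change was 0.02 (SE 0.0682, 95% interval −0.13 to 0.17, adjusted p = 0.990), which bounds a change to between −8.58% and 12.7%. *Pum2* (chr12:8680940-8759387, plus strand) encodes a Pumilio protein that represses mRNAs by deadenylation. It had 953 and 973 in *Nef-sp*+/- against 922 and 981 in *Nef-sp*-/- testes, again with the *Nef-sp*-/- libraries at both ends. Its log2 fold change was −0.02 (SE 0.0671, 95% interval −0.17 to 0.13, adjusted p = 0.990).

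Among the translational activators, *Dazl* (chr17:50418719-50432924, minus strand) encodes the DAZ-like protein required for germ cell development. It had 5056 and 4793 normalized counts in *Nef-sp*+/- against 4955 and 5360 in *Nef-sp*-/- testes, which overlap. Its log2 fold change was 0.07 (SE 0.0636, 95% interval −0.07 to 0.21, adjusted p = 0.956), and 0.013 to 0.12 with 1 library left out. *Boll* (chr1:55305502-55420313, minus strand), the DAZ family member of later spermatogenesis, had 1337 and 1205 in *Nef-sp*+/- against 1209 and 1175 in *Nef-sp*-/- testes. The lower *Nef-sp*+/- library and the higher *Nef-sp*-/- library were almost equal, and the log2 fold change was −0.09 (SE 0.0705, 95% interval −0.24 to 0.07, adjusted p = 0.954), with −0.17 to −0.015 when 1 library was left out. *Cpeb1* (chr7:88491912-88600351, minus strand) encodes the factor that binds cytoplasmic polyadenylation elements, and it rested on few reads: 26 and 48 in *Nef-sp*+/- against 27 and 17 in *Nef-sp*-/- libraries. Scaled, these were 29.9 and 33.8 against 31.2 and 20.1. They overlapped, with 1 *Nef-sp*-/- library low. The log2 fold change was −0.33 (SE 0.277, adjusted p = 0.956), and it ran from −0.68 without the first *Nef-sp*-/- library to −0.046 without the second. Its 95% interval of −0.94 to 0.28, or −47.8% to 21.8%, was the widest of the 9, so a sizeable difference in *Cpeb1* was not detectable at this depth.

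The 2 members that bind AU- and GU-rich elements were *Elavl1* and *Celf1*. *Elavl1* (chr8:4284782-4325100, minus strand) encodes HuR, which stabilizes AU-rich mRNAs. It had 2472 and 2339 in *Nef-sp*+/- against 2103 and 2210 in *Nef-sp*-/- testes. The *Nef-sp*-/- libraries lay below both *Nef-sp*+/- libraries, at 89.6% of their mean. The log2 fold change was −0.16 (SE 0.0622, 95% interval −0.29 to −0.02), with an unadjusted p of 0.0291 by the edgeR test and an adjusted p of 0.954. *Elavl1* was the 1 member with an unadjusted p below 0.05. DESeq2 gave 0.0869 before adjustment. Without the first *Nef-sp*+/- library, which stood apart, the log2 fold change was −0.12 (adjusted p = 0.969), and without the second it was −0.20 (adjusted p = 0.277). *Celf1* (chr2:90780539-90859654, plus strand), whose protein promotes decay and alters splicing of GU-rich mRNAs, had 612 and 541 in *Nef-sp*+/- against 547 and 536 in *Nef-sp*-/- testes. One *Nef-sp*+/- library was high and the other 3 libraries were close together, and the log2 fold change was −0.08 (SE 0.0826, 95% interval −0.26 to 0.10, adjusted p = 0.956).

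The remaining members bind double-stranded RNA or the DAZ proteins. *Tarbp2* (chr15:102348623-102354107, plus strand) encodes a double-stranded RNA-binding partner of Dicer that is also needed for protamine mRNA translation. It had 2928 and 2789 in *Nef-sp*+/- against 3093 and 2821 in *Nef-sp*-/- testes, which overlap, with a log2 fold change of 0.05 (SE 0.0654, 95% interval −0.09 to 0.19, adjusted p = 0.957). *Dazap1* (chr10:79724231-79751153, plus strand), which encodes a DAZ-associated RNA-binding protein with roles in splicing and translation, had 2306 and 2220 in *Nef-sp*+/- against 2184 and 2155 in *Nef-sp*-/- testes. It was the other member without overlap, lower in *Nef-sp*-/-, by a log2 fold change of −0.06 (SE 0.0592, 95% interval −0.19 to 0.07, adjusted p = 0.956).

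**Figure D2:**
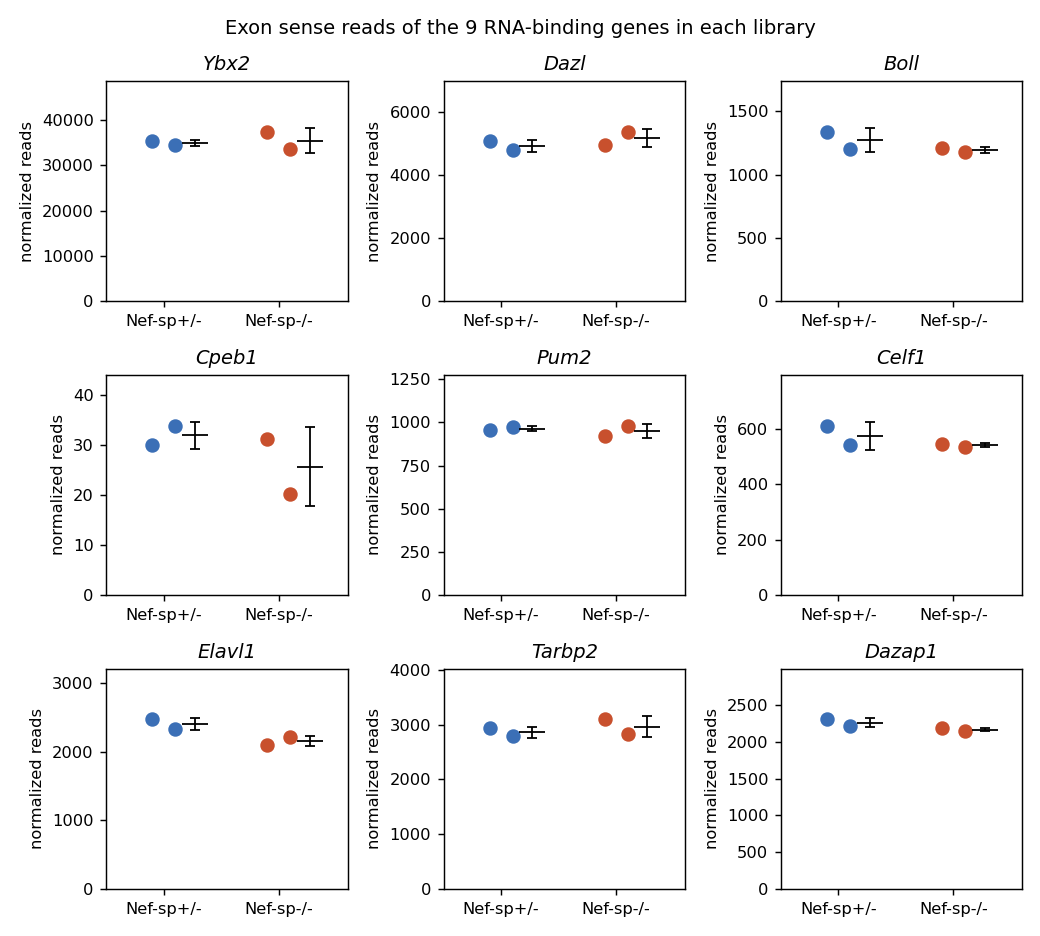
Normalized exon sense counts of the 9 RNA-binding genes in the 4 libraries, each gene on its own scale, with points for libraries and a mean ± SD per genotype. For *Elavl1* and *Dazap1* the *Nef-sp*-/- points lie below the *Nef-sp*+/- points, and for the other 7 genes they overlap.

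**Figure D3:**
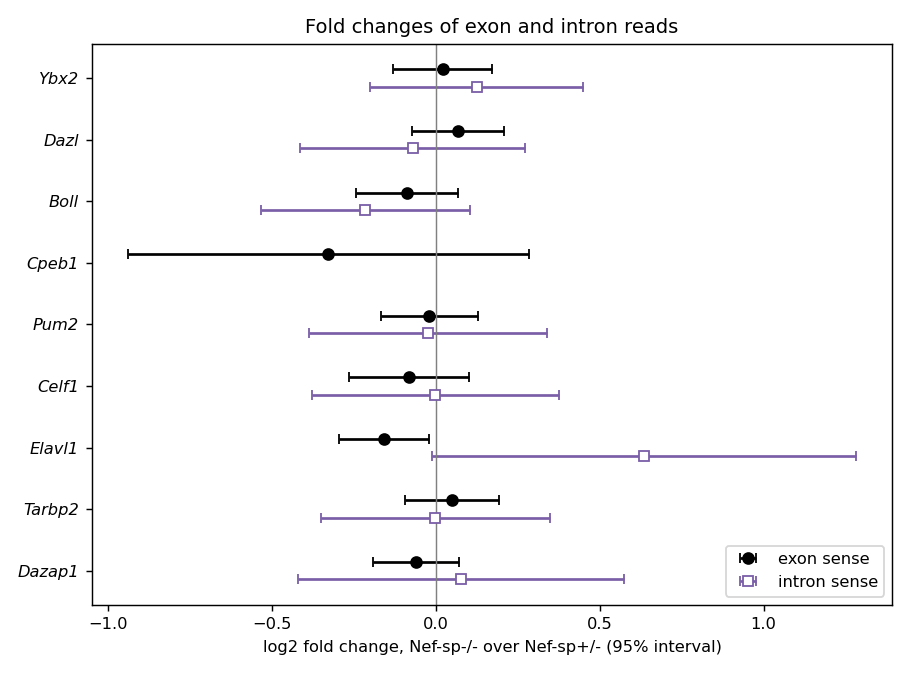
Log2 fold changes of exon sense reads, *Nef-sp*-/- over *Nef-sp*+/- (horizontal axis), with 95% intervals, for the 9 RNA-binding genes in filled points, and of their intron sense reads in open squares. Exon values lie between −0.33 (*Cpeb1*) and 0.07 (*Dazl*), and that of *Elavl1* exon reads, −0.29 to −0.02, is the only one that leaves out 0, before adjustment.

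The fold changes of all features tested ran from −2.17 to 1.72, and the plot of fold change against level sets the members among them.

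**Figure D4:**
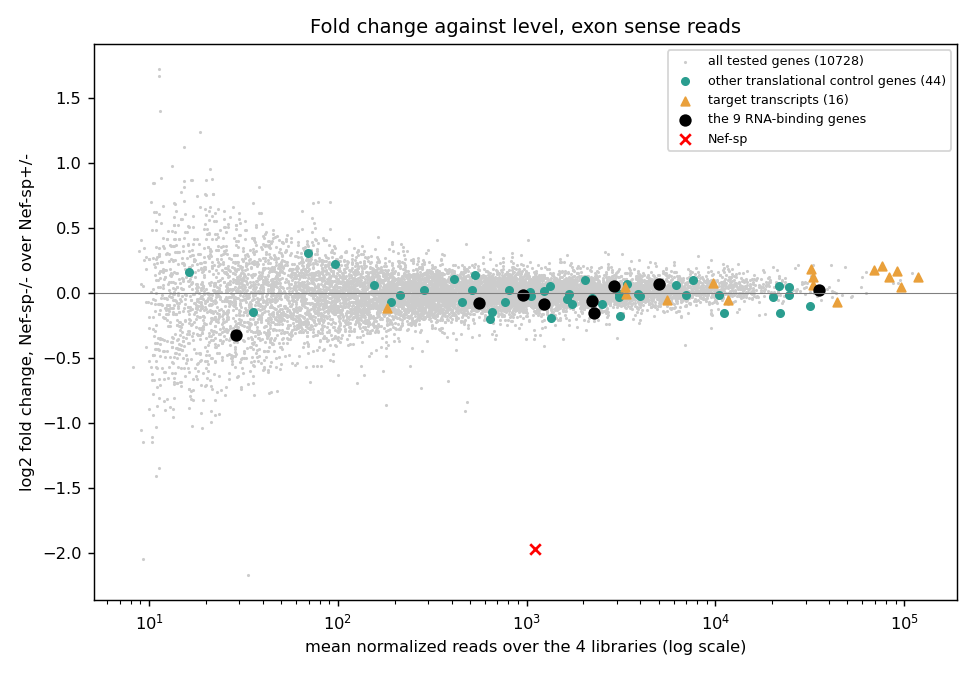
Log2 fold change of exon sense reads, *Nef-sp*-/- over *Nef-sp*+/-, against mean normalized count on a log axis, for 10728 features tested in pale points and the 9 RNA-binding genes marked. Genes of the wider list and target mRNAs have marks of their own. *Nef-sp* lies at −1.97, and the 9 genes lie between −0.33 and 0.07.

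Reads over introns were another measure of the same genes, since the libraries were made from total RNA and hold unspliced transcripts. Of the 9 members, 8 had intron sense reads that passed the filter, and *Cpeb1* was not listed in that category. By edgeR, 0 of 8 passed an adjusted p of 0.05 and 0 had an unadjusted p below 0.05, against 0.0294% and 2.35% of 3403 features tested, and 0 passed by DESeq2. *Elavl1* was the furthest from 0, and in the opposite direction to its exon reads. Its normalized intron counts were 21.3 and 20.6 in *Nef-sp*+/- against 23.8 and 40.7 in *Nef-sp*-/- testes, from 19, 28, 20 and 37 reads in the same order. One *Nef-sp*-/- library was high and the other 3 were within a few counts of each other. The log2 fold change was 0.64 (SE 0.311, 95% interval −0.01 to 1.28, adjusted p = 0.9996), with 0.95 without the first *Nef-sp*-/- library (unadjusted p = 0.00651, adjusted p = 0.982, edgeR) and 0.19 without the second. *Boll* had 261 and 251 in *Nef-sp*+/- against 235 and 207 in *Nef-sp*-/- testes, lower without overlap, with a log2 fold change of −0.21 (SE 0.154, 95% interval −0.53 to 0.11, adjusted p = 0.9996). The genotypes did not overlap in this order, lower, in 14.5% of features tested and, higher, in 13.5%. For the other 6 members the intron counts overlapped and the log2 fold changes ran from −0.07 for *Dazl* to 0.12 for *Ybx2*. The second *Nef-sp*-/- library, the high one for *Elavl1*, was also the highest for *Ybx2*, *Pum2* and *Celf1*. It was the lowest for *Dazl*, *Boll* and *Tarbp2*, and in between for *Dazap1*.

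Intron reads were also taken as a share of the exon and intron sense reads of each gene. The share depends on the intron and exon lengths of a gene, so it was compared between genotypes and not between genes. *Celf1* had 21.6% and 21.3% in *Nef-sp*+/- against 18.8% and 27.1% in *Nef-sp*-/- testes. *Boll* had 16.7% and 16.6% against 15.8% and 15.9%, and *Pum2* 15.0% and 12.6% against 12.3% and 15.8%. *Elavl1* had 0.877% and 0.836% in *Nef-sp*+/- against 1.09% and 1.94% in *Nef-sp*-/- testes. The Wilson 95% intervals of these shares, which cover counting error only, reached from 1.41% to 2.67% in the last library and from 0.562% to 1.37% in the first. *Ybx2* had 4.47% and 3.60% in *Nef-sp*+/- against 3.40% and 5.65% in *Nef-sp*-/- testes. Its interval in the last library, 5.40% to 5.92%, lay above those of the other libraries. This second *Nef-sp*-/- library had the highest share in *Elavl1*, *Ybx2*, *Celf1* and *Pum2*, and the lowest in *Dazl* and *Tarbp2*. The cause was not tested. The genotypes did not overlap in 4 of the 8 members. The share was higher in *Nef-sp*-/- testes in *Elavl1*, against 16.8% of the 3294 features tested in both categories, and lower in *Boll*, *Dazl* and *Tarbp2*, against 11.2%. *Dazl* had 2.92% and 3.05% against 2.83% and 2.79%, and *Tarbp2* 5.22% and 5.22% against 5.204% and 5.17%. In each of *Boll*, *Dazl* and *Tarbp2* the Wilson intervals of the 4 libraries overlapped. With 2 libraries per genotype the smallest exact permutation p, two-sided, is 0.333, which was the value for the 4 members without overlap. Antisense reads over members were few, at most 4 per library over exons of *Tarbp2* and *Ybx2* and at most 3 over introns of *Boll*, and were not tested.

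The families of the members were read from the same fit. *Ybx3* and *Ybx1*, Y-box paralogs that also bind mRNA, had length-scaled levels of 919 and 522.7 RPKM. The range of *Ybx3*, 849.6 to 973.1, overlapped that of *Ybx2*, and that of *Ybx1* lay below it. With the longest transcript length, *Ybx2* (1071 to 1184) no longer overlapped *Ybx3*, and *Ybx1* stood at 812.7. Their exon log2 fold changes were −0.10 (adjusted p = 0.954) and −0.01 (adjusted p = 0.990). The CPEB family was led by *Cpeb2* at 23.4, with *Cpeb4* at 8.77 and *Cpeb3* at 4.72, all above *Cpeb1* (0.368). Their exon log2 fold changes were −0.18, 0.0045 and −0.15, none past the adjusted threshold. *Celf2* (1.25) and *Elavl2* (0.159) were below *Celf1* and *Elavl1* in level, with log2 fold changes of 0.02 and 0.16. Other CELF genes were read without scaling to length. *Celf3* had 501 and 518 normalized exon counts in *Nef-sp*+/- against 501 and 534 in *Nef-sp*-/- testes, near the 536 to 612 of *Celf1*. *Celf6* had 86.3 and 92.2 against 110 and 99.4. Their log2 fold changes were 0.02 and 0.22, and neither passed the adjusted threshold. *Celf4* and *Elavl4* did not pass the filter. In the CPEB family the lowest library of *Cpeb2* (20.5) lay above the highest of *Cpeb1* (0.430).

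Beyond the members, a list of 65 further RNA-binding and translational control genes of germ cells had 50 with exon reads and 44 tested. Of these, 0 passed the adjusted threshold by edgeR and 4 had an unadjusted p below 0.05, all lower in *Nef-sp*-/- testes. That count was 1 by DESeq2 and 2 with the replicate block. It stayed at 4 with the other scalings and filters and in a single fit over all categories. The count changed in each fit that left out 1 library. The share of all features with an unadjusted p below 0.05 and lower was 2.83%. The 3 with the smallest p were *Stau1*, *Pabpc1* and *Khdrbs1*, and *Cpeb2* was the fourth. *Pabpc1*, the main cytoplasmic poly(A)-binding protein, had 23132 and 23043 in *Nef-sp*+/- against 21056 and 20450 in *Nef-sp*-/- testes, with a log2 fold change of −0.15 (SE 0.0584, adjusted p = 0.954). *Stau1*, a double-stranded RNA-binding protein, had 674 and 699 against 576 and 621, and a log2 fold change of −0.20 (SE 0.0737, adjusted p = 0.954). *Khdrbs1*, an RNA-binding protein required for spermiogenesis, had 1530 and 1352 against 1267 and 1252, and a log2 fold change of −0.19 (SE 0.0726, adjusted p = 0.954). In these 4 genes the genotypes did not overlap. Over the 44 genes, 26 fold changes were below 0 and 18 above, 11 were lower and 7 higher without overlap, and the median was −0.01. Of all 10728 features tested, 5380 were below 0, and 18.1% were lower and 16.4% higher without overlap.

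mRNAs listed from background knowledge as bound by members, or translated under their control, were the last group. A list of 17 had 16 with exon reads (*Tex14* was not listed), and all 16 were tested. By edgeR 0 passed the adjusted threshold, and 2 had an unadjusted p below 0.05, both higher in *Nef-sp*-/- testes, where 1.97% of all features tested were so. That count was 2 by DESeq2, 0 with the replicate block, 0 when every category was fitted together, 0 without either *Nef-sp*-/- library, 1 without the first *Nef-sp*+/- library and 10 without the second. *Tnp1*, the transition protein that precedes protamine on sperm chromatin, had 60173 and 69754 in *Nef-sp*+/- against 74025 and 72979 in *Nef-sp*-/- testes. Its log2 fold change was 0.18 (SE 0.0754, adjusted p = 0.954, edgeR). *Akap4*, a fibrous sheath protein of the sperm tail, had 62670 and 78571 against 81757 and 81017, a log2 fold change of 0.20 (SE 0.0923, adjusted p = 0.954). *Tnp2* came next, with 78701 and 94202 against 100091 and 94462, and a log2 fold change of 0.17 (SE 0.0840, adjusted p = 0.954). In all 3 the first *Nef-sp*+/- library was the low one. It was the lowest of the 4 for each of 8 spermatid mRNAs of the list, *Prm1*, *Prm2*, *Prm3*, *Tnp1*, *Tnp2*, *Smcp*, *Odf1* and *Akap4*, a group set apart after the values were seen, by a median of −0.25 on the log2 scale from the 4-library mean. Without the second *Nef-sp*+/- library 8 targets passed the adjusted threshold, all higher in *Nef-sp*-/-, as did 2.32% of all features. Without the first, 0 did, and 0.376% of all features passed. The part of this library in the values was not tested. Of the 4 sites printed above from target mRNAs, *Prm1* had a log2 fold change of 0.12, *Sycp1* −0.05, *Ddx4* −0.05 and *Sycp3* −0.01. Over all 16, 11 fold changes were above 0 and 5 below, 6 were higher and 1 lower without overlap, and the median was 0.07. Of all 10728 features tested, 5348 were above 0, and 16.4% were higher and 18.1% lower without overlap.

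**Figure D5:**
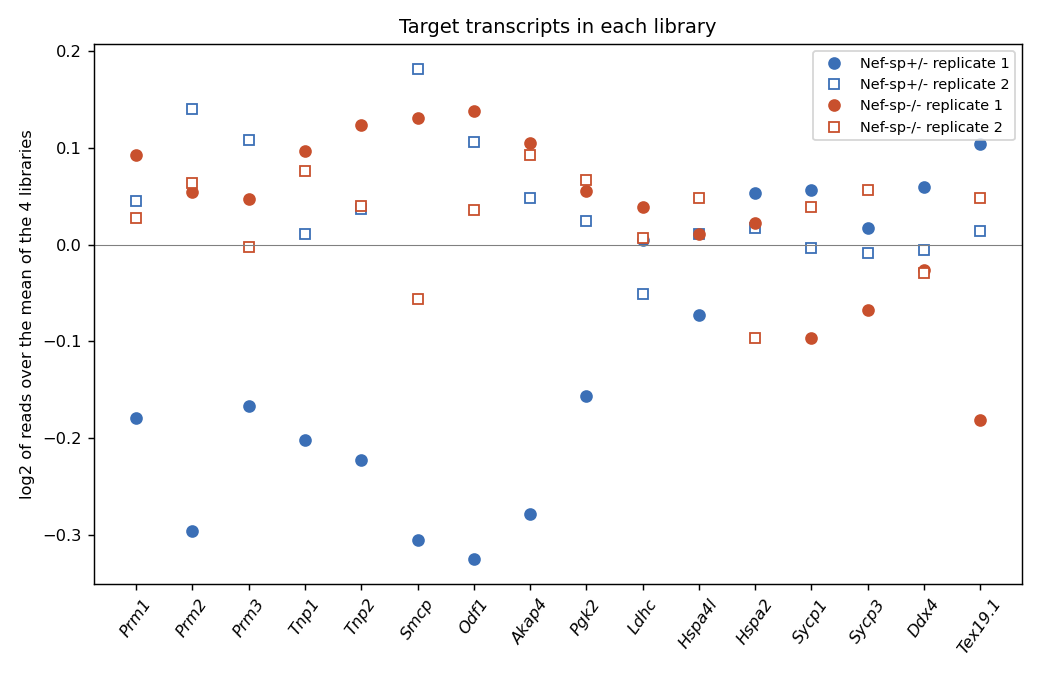
Normalized exon sense counts of mRNAs listed as bound by the 9 proteins or translated under their control, by library, as log2 of the value over the 4-library mean. The first *Nef-sp*+/- library is lowest for each of the 8 spermatid mRNAs, with a median of −0.25, and it is among the higher libraries for the spermatocyte mRNAs *Sycp1* and *Sycp3*.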

How the data were processed

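Total testis RNA was depleted of ribosomal RNA and sequenced as strand-specific libraries for 50 cycles, and genotype and replicate number came from the sample labels. The authors trimmed adapters, aligned to mm9 using in-house software, retained reads that matched perfectly, and deposited unscaled counts by feature, category and strand. Tool versions and the handling of reads with several matches were not given in the sources used here. The deposited table also holds the authors' mean signal (counts over DESeq2 size factors), log2 fold changes, p-values and adjusted p-values of their DESeq2 comparison, which were not used. The members and gene lists were chosen with earlier results of these data known.

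Counts were tested with edgeR 4.0.16 in R 4.3.3 (quasi-likelihood test after TMM, no covariates), fitted on every feature of a category that passed filterByExpr (minimum count 10). P-values were adjusted by Benjamini-Hochberg over the category, with a threshold of 0.05. Alternatives were DESeq2 1.42.0, other scalings and filters, a single fit over all categories, a replicate block and leaving out each library. The scripts were tested on simulated counts. Named genes were all members, of each list those past the threshold or else the 3 with the smallest p, and paralogs of members, of which 1 is not reported here. The other genes named, among them *Cpeb2* as the fourth of its list and the 8 spermatid mRNAs, were chosen after their values were seen. Features listed in the table had at least 5 reads in all. Shared 50-base stretches and 3'UTR letters were searched in GENCODE transcripts of the mm9 assembly, in sense only.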

Additional observations from a re-analysis of the deposited data

How the results depend on the processing

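No member passed an adjusted p of 0.05 in exon or intron reads under any alternative run. In exon reads, members with an unadjusted p below 0.05 numbered 1 by edgeR, 0 by DESeq2, 0 with the replicate number as a block, and 0 to 1 without each library in turn. In intron reads they numbered 0, and 0 to 1 without each library. The labels do not say what a replicate number shares. Deviations of same-numbered libraries correlated at −0.09 in exon and −0.15 in intron reads, and the block left 0 members and 1 feature of all past the threshold. With the numbers crossed between genotypes, an alternative chosen after seeing the data, 0 members passed and 1 had an unadjusted p below 0.05 in intron reads. Over all exon features, 2 passed by DESeq2 and 1 to 252 without each library. Leaving out libraries gave 0 to 8 target mRNAs (8 without the second *Nef-sp*+/- library: *Akap4*, *Odf1*, *Pgk2*, *Prm1*, *Prm2*, *Smcp*, *Tnp1* and *Tnp2*) and 0 to 1 gene of the wider list (*Mex3d* without the first *Nef-sp*+/- library, log2 fold change −0.36, adjusted p = 1.1e-06 by edgeR). In such fits the lone library is assumed to vary like the other group. The cause was not tested.

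Several fold changes near 0 changed sign. With total library sizes in place of TMM, *Ybx2* exon reads gave −0.0032, and intron reads gave 0.0018 for *Pum2*, 0.027 for *Celf1* and 0.020 for *Tarbp2*. A single fit over all categories gave 0.022, 0.046 and 0.036 for the same 3 intron values. *Tarbp2* intron reads gave 0.00099 by DESeq2 and 0.0083 with the crossed block. Without each library, exon values ran from −0.060 to 0.10 for *Ybx2*, −0.061 to 0.025 for *Pum2*, −0.18 to 0.0032 for *Celf1* and −0.018 to 0.12 for *Tarbp2*. Intron values ran from −0.12 to 0.32 for *Ybx2*, −0.17 to 0.29 for *Dazap1*, −0.21 to 0.13 for *Pum2*, −0.27 to 0.21 for *Celf1* and −0.16 to 0.14 for *Tarbp2*. The *Elavl1* exon value stayed below 0 in each fit, with an unadjusted p of 0.0176 to 0.0869 over 7 alternatives that kept all libraries. Scaling moved the median of all exon features to −0.02 at most. The span of length-scaled levels was 2275 with the longest transcript. Counts of 17 to 48 reads limit *Cpeb1* exon values, and 19 to 37 *Elavl1* intron values.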

Other observations

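Of the wider list, 2 genes had an unadjusted p below 0.05 in intron sense reads, against 2.35% of features tested. *Cpeb3* had 59.4 and 68.4 normalized counts in *Nef-sp*+/- against 48.8 and 41.8 in *Nef-sp*-/- testes, a log2 fold change of −0.51 (SE 0.225, adjusted p = 0.9996, edgeR). *Lsm14a*, a gene for a protein of mRNA storage particles, had 3.36 and 1.47 normalized intron sense counts in *Nef-sp*+/- against 11.9 and 12.1 in *Nef-sp*-/- testes. These rest on 3, 2, 10 and 11 reads, and the log2 fold change of 2.37 had an unadjusted p of 0.00138 and an adjusted p of 0.9996 by edgeR. Its exon sense counts were 470 and 463 against 442 and 446, with a log2 fold change of −0.07. *Patl2*, a gene for a translational repressor of oocytes, was not listed with exon sense reads, but reads antisense to its introns numbered 5218 and 5099 in *Nef-sp*+/- against 5307 and 5486 in *Nef-sp*-/- testes after normalization. Its intron sense reads were 0 to 3 per library. Genes on the opposite strand at *Patl2* were not looked up, so the source of these antisense reads was not tested. *Lsm14a* and *Patl2* were singled out after their values were seen.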
